A study of Mus musculus with 12 samples.

Results

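Mice with a deleted Tcra gene (Tcra-/-) cannot assemble the alpha beta T cell receptor, while gamma delta T cells, B cells and innate lymphocytes still develop. The comparison described here is between 3 Tcra-/- mice that had shared a cage with wild type mice and 3 Tcra-/- mice housed apart, 6 of the 12 libraries of the series, with 1 library of the terminal ileum per mouse. It asks how the ileum differs between animals of 1 genotype kept with and without wild type mice. The members were all genes of the deposited table, of which 15866 of 23284 passed the filter on low counts and were tested.

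The co-housed mice had spent 4 to 8 weeks in a cage with an equal number of age-matched, ear-tagged male C57BL/6 mice. For the separately housed mice, the labels give the Tcra-/- genotype and no further housing detail. The other 6 libraries came from 3 wild type C57BL/6 mice and 3 Rag1-/- mice, which form neither mature T nor mature B cells, and entered the fit and the comparison of effects near the end. All mice came from Taconic and were kept specific pathogen free. The labels give neither the age nor the number of cages, and they state the sex of the wild type cage mates alone. The deletion is a germline one, present in every cell of both Tcra-/- groups throughout life. The co-housed mice carry 4-digit numbers like those of the wild type and Rag1-/- mice, and the separately housed mice are numbered T2, T3 and T4. Whether the latter were collected at another time is not stated on the labels, so housing and cohort cannot be told apart. Mice of 1 cage are not independent replicates of housing, so the tests measure spread among mice.

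The gut epithelium answers microbes through a small set of circuits. Interleukin 22, made largely by group 3 innate lymphoid cells and some T cells, acts on epithelial cells through the transcription factor STAT3 and turns on secreted lectins, fucosyltransferases and acute phase proteins. Interferon gamma, made by T cells and natural killer cells, turns on guanylate binding proteins and both classes of MHC molecules. Enterocytes of the villus absorb and oxidise nutrients, a programme set by nuclear receptors and by the local clock.

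Total counts ran from 37061276 to 43496528 in co-housed and from 40294353 to 44574864 in separately housed mice, and no pair of libraries within either group agreed within sampling noise. Levels are given as CPM, a gene's count relative to its library's scaled total (counts per mega-count). Log2 CPM had a Pearson's r over all tested genes (a description, since genes are no replicates) of 0.987 to 0.990 within the co-housed group, 0.991 to 0.992 within the separately housed group and 0.942 to 0.959 between them. Ileal markers matched the tissue label. The bile acid binding protein Fabp6 had 4015, 3734 and 4018 CPM in co-housed mice (in the order TCRaCox3155, TCRaCox3156, TCRaCox3157, kept throughout) and 3550.2, 3438 and 3626 CPM in separately housed mice (TCRaSepxT2, TCRaSepxT3, TCRaSepxT4), and the ileal bile acid transporter Slc10a2 had 280.0, 262 and 207 against 196, 214 and 199 CPM. Neither passed the test (log2 fold change 0.15, SE 0.11, adjusted p = 0.253, and 0.30, SE 0.15, adjusted p = 0.114). Fold changes are those of co-housed over separately housed mice, from edgeR's quasi-likelihood test, with p adjusted over all genes tested. Library TCRaCox3155 stood apart in ribosomal RNA, with 15152, 903 and 906 CPM of Rn45s in the co-housed and 1207, 1277 and 1105 in the separately housed mice. Without that library 5357 genes were called, 2924 higher and 2433 lower.

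Housing went with a change across a large share of the ileal transcriptome. At an adjusted p under 0.01, 6156 genes were called, 38.8% of those tested, with 3347 higher (21.1%) and 2809 lower (17.7%) in co-housed mice. The 3 co-housed mice did not overlap the 3 separately housed mice for 9186 genes, 57.9% of those tested (30.1% higher, 27.8% lower). Called genes that moved over 2-fold made up 6.60% on the higher side (1047 genes) and 5.29% on the lower side (840 genes), and 108 rose and 72 fell over 10-fold. The typical called change was smaller, with a median size of 0.70 on the log2 scale, and the median of all genes was −0.01. With scaling by library size alone, the median of all genes moved to −0.12, and the calls split into 2480 higher and 3695 lower (40.2% higher, against 54.4%), so that the directions below are given relative to the chosen scaling. Genes were grouped in lists by their known roles, and list counts given later are to be read against these shares. Setting genes with no read in 1 group at the bound given by 3 counts moved no list's median by 0.05 or more.

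**Figure D1:**
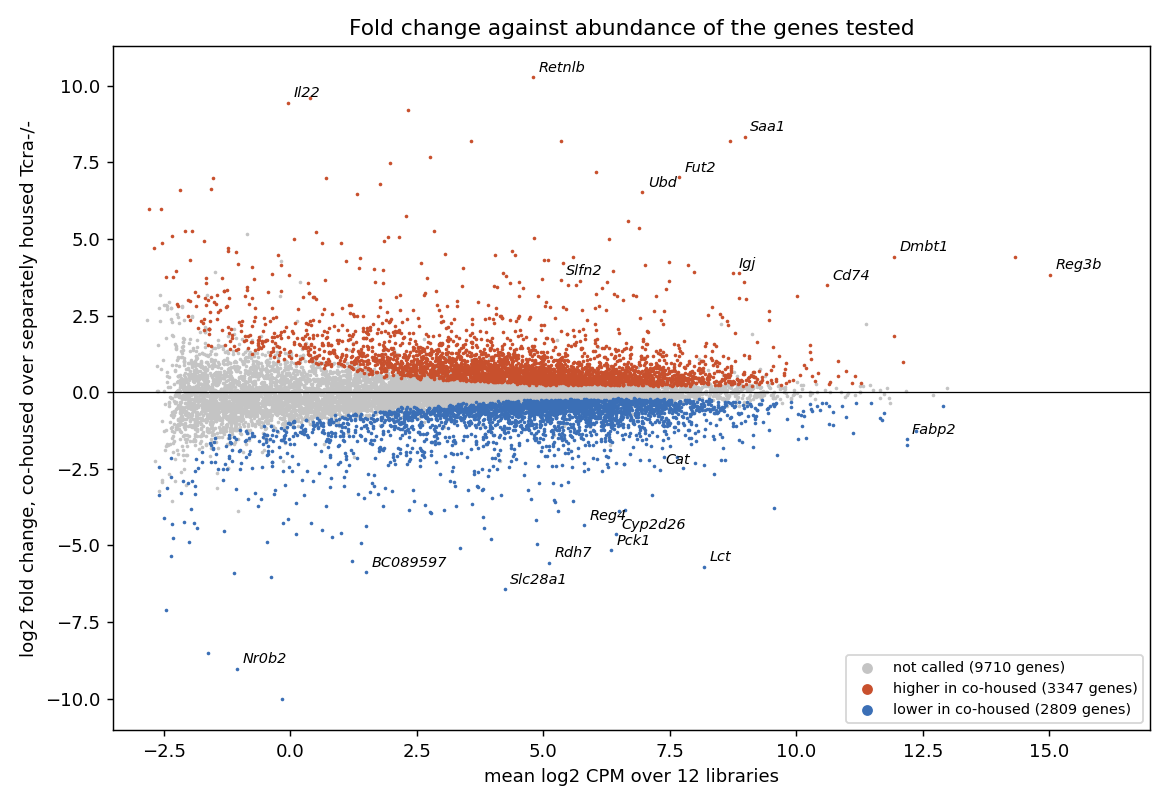
Log2 fold change of each gene tested (vertical axis, co-housed over separately housed Tcra-/-) against its mean log2 CPM over 12 libraries (horizontal axis), with 3347 genes called higher in red, 2809 called lower in blue and the rest in grey. Reg3b lies at the right edge, far above 0; fitted values of genes with no read in 1 group, such as Il22 and Nr0b2, depend on the model's prior count and are not bounds.

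A few secreted proteins took up much of the RNA of co-housed mice. Reg3b, a lectin that kills bacteria at the mucus (mm9 chromosome 6, 78320879 to 78323460), had 54814, 49257 and 63534 CPM in co-housed and 6336, 2437 and 3024 CPM in separately housed mice. The lowest co-housed mouse was far above the highest separately housed mouse, and the rise was 14.2-fold (log2 3.83, SE 0.39, adjusted p = 3.72e-05). Its neighbour Reg3g (32691, 29474 and 43143 against 2579.8, 1118 and 1291 CPM) rose 21.1-fold, and Dmbt1, a scavenger protein that binds bacteria (5315, 6546 and 7528 against 394, 293 and 221 CPM), rose 21.4-fold. The 10 most abundant transcripts held 12.3 to 15.2% of counts in co-housed and 6.57 to 7.11% in separately housed mice. Reads of related Reg genes can be assigned to either copy, which was not measured.

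Of 26 tested Reg lectins and other antimicrobial genes, 21 rose and 2 fell, with a median of 2.15. Retnlb, a goblet cell protein that attacks bacteria, had 30.7, 37.8 and 53.9 CPM in co-housed mice, against 0, 0.0932 and 0 CPM. It was all but absent in each separately housed mouse and rose by 10.28 (SE 0.50, adjusted p = 6.48e-08). The serum amyloid genes, carriers of retinol and lipid in acute phase responses, rose too, with Saa1 at 702, 524 and 1165 against 4.34, 1.51 and 1.51 CPM (8.34, SE 0.58), Saa2 by 8.21 and Saa3 by 3.99. The nitric oxide synthase Nos2 (795, 607 and 675 against 62, 35.1 and 73.4 CPM) rose 12.2-fold. The epithelial oxidase Duox2 and its partner Duoxa2 rose by 3.07 and 3.91, but neither was called in a fit of the 6 Tcra-/- libraries alone (adjusted p = 0.0170 and 0.0278). The members that fell were the lectins Reg4 (8.54, 6.79 and 6.14 against 155, 201 and 79 CPM, a 20.3-fold fall) and Reg1 (−1.42, SE 0.25). The Reg family thus held genes that rose and genes that fell.

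**Figure D2:**
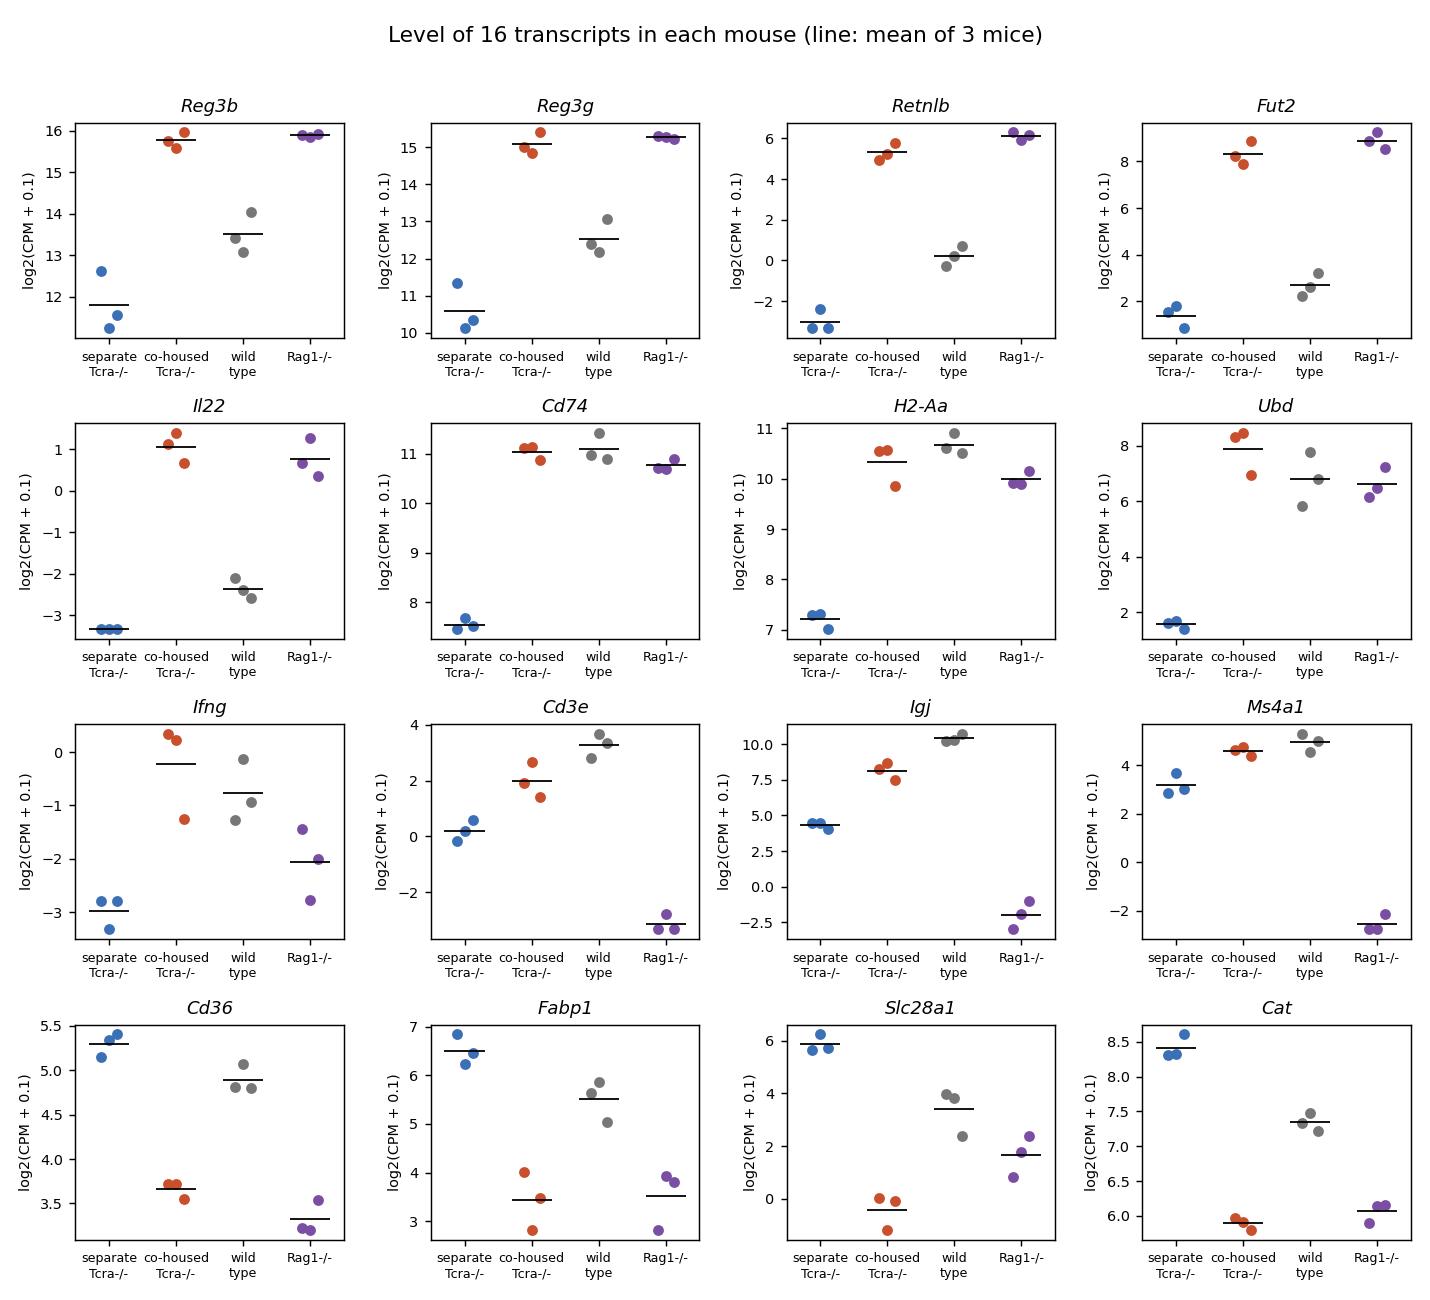
Level of 16 transcripts, as log2 of CPM plus 0.1 (vertical axes), in each mouse of the 4 groups (horizontal axes), with a line at the mean of 3 mice. Reg3b, Fut2, Il22, Cd74 and Ubd are higher in every co-housed than in every separately housed Tcra-/- mouse, and Cd36, Fabp1, Slc28a1 and Cat are lower.

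Il22 had 2.08, 2.51 and 1.49 CPM in co-housed mice and no read in any separately housed mouse. With a floor of 3 counts over the 3 separately housed libraries, it was at least 91.2-fold higher (adjusted p = 1.82e-07). The wild type mean was 0.0976 CPM and the Rag1-/- mean 1.66 CPM, and every co-housed Tcra-/- mouse was above the wild type mean. Il17a was under the filter, with 6 reads in the 3 co-housed and 0 in the 3 separately housed libraries, and Il17f did not pass (3.18, SE 1.4, adjusted p = 0.0707). Of the cytokines of type 3 lymphocytes and their inducers, 8 of 17 rose and 3 fell, among them the Il17re receptor chain (−1.53) and Tnfsf15 (−2.40), a TNF family cytokine. Of 18 markers of group 3 innate lymphoid cells 7 rose (4 without mouse TCRaCox3156 or TCRaSepxT4) and 3 fell, so these marker genes did not move 1 way.

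Genes of the interleukin 22 and STAT3 response of the epithelium, receptor chains included, rose in 14 of 23 cases and fell in 2. Fut2, which adds fucose to surface glycans (mm9 chromosome 7, 52903965 to 52921678), had 299.7, 237 and 471 against 2.79, 3.35 and 1.71 CPM, a 129-fold rise (log2 7.01, SE 0.45, adjusted p = 2.23e-06). B3galt5, a galactosyltransferase that builds the chain Fut2 acts on, had 688, 702 and 753 against 3.31, 2.28 and 1.64 CPM, and rose by 8.21 (SE 0.27, adjusted p = 2.69e-09). Both were near silent in separately housed mice. Socs3, a feedback inhibitor of STAT3, rose 10.2-fold (263, 265 and 290.3 against 32, 19.3 and 28.5 CPM), the tyrosine aminotransferase Tat 48-fold, and the secreted glycoprotein Lrg1 146-fold (68.1, 60.5 and 198 against 1.32, 0.513 and 0.394 CPM, with mouse TCRaCox3157 the highest). Il18, an inflammasome cytokine, and its soluble antagonist Il18bp rose by 2.23 and 4.41. The 2 that fell are receptor chains for interleukin 22, Il22ra1 (193, 136 and 145 against 305, 319 and 341 CPM) and Il10rb (−0.47). Stat3 itself rose by only 0.55 (SE 0.09).

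Among enzymes of surface glycans, Fut2 included, 11 of 24 rose and 2 fell (4 with scaling by library size alone). Gmds, the first enzyme of GDP-fucose synthesis, rose by 2.18, the sulfotransferase Chst4 by 3.16, and the N-acetylglucosaminyltransferases B3gnt7 and Gcnt1 by 4.25 and 2.43. Fut4 did not pass (0.04, adjusted p = 0.726). Membrane mucins rose, with Muc4 at 120.4, 125 and 152 against 15.6, 14.7 and 12.6 CPM (9.26-fold; Muc4 shares exonic bases with another gene) and Muc13 at 5596, 4540.0 and 5379.5 against 2763, 2247 and 2775 CPM. Among secreted products of goblet cells, the lectin Zg16 (−0.69, SE 0.09) and Tff3 (−0.38) fell, while Retnlb rose. Among all 21 goblet cell and mucus genes 7 rose and 8 fell, and the lower count was 5 with the 6 Tcra-/- libraries alone.

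T cell genes were higher in co-housed mice although both groups lack alpha beta T cells. Of 30, 22 rose and 0 fell by edgeR (1 lower at an unadjusted p under 0.05, 0 lower by DESeq2), with a median of 2.02. Cd3e, a chain of the receptor complex on all T cells, had 3.63, 6.15 and 2.53 against 0.790, 1.05 and 1.42 CPM (1.92, SE 0.36, adjusted p = 0.000567), where wild type mice averaged 9.82 and Rag1-/- mice 0.0158 CPM. The groups did not overlap, and the co-housed mice remained below the wild type mean. The kinase Zap70 rose by 2.02 (SE 0.21) and the coreceptor Cd8a 3.27-fold (9.03, 12.1 and 7.53 against 2.83, 2.77 and 3.17 CPM), while Cd4 did not pass (0.72, adjusted p = 0.0168). In bulk tissue, more cells of a type and more RNA per cell cannot be told apart. The Tcra gene itself was not analysed here.

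Cytotoxic effector genes rose in 20 of 22 cases and fell in 0 by edgeR (0 lower also at an unadjusted p under 0.05 and by DESeq2), with a median of 2.24. With a filter of 1 CPM, which tests fewer low genes, 13 of 14 rose. Perforin, Prf1, had 0.428, 0.823 and 0.545 against 0.0878, 0.163 and 0.109 CPM (2.31, SE 0.47, adjusted p = 0.000686). Il2rb, a receptor chain for interleukins 2 and 15, rose by 2.17 and the natural killer receptor Klrd1 by 2.48. Ifng had 1.17, 1.07 and 0.322 CPM in co-housed and 0.0439, 0 and 0.0437 CPM in separately housed mice, a rise of 4.71 (SE 0.79, adjusted p = 0.000124) on few reads, and was not tested with that filter. Mouse TCRaCox3157 was lowest of its group for Ifng but above all separately housed mice. Of 14 gamma delta and intraepithelial lymphocyte genes 9 rose and 0 fell (0 lower also at an unadjusted p under 0.05 and by DESeq2), and the integrins Itgae and Itgb7, which hold these cells in the epithelium, rose by 1.54 and 1.68. The count of 9 was 5 without mouse TCRaSepxT3. The butyrophilin-like genes of the epithelium, which shape intraepithelial gamma delta cells, rose in 0 of 6 cases by edgeR (1 higher at an unadjusted p under 0.05, 0 by DESeq2). In 2 of the 6 cases, Btnl3 and Btnl2, they fell. Btnl6 did not pass (423, 388 and 311 against 366, 373 and 407 CPM, adjusted p = 0.827).

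B cell and antibody genes shifted in the same direction. Of 24 B cell genes 14 rose (9 without mouse TCRaCox3156) and 0 fell (0 lower also at an unadjusted p under 0.05 and by DESeq2), and Ms4a1, which encodes CD20, had 24.7, 26.6 and 21.1 against 7.11, 12.8 and 8.16 CPM (1.37, SE 0.23, adjusted p = 0.000307). Plasma cell genes rose in 9 of 14 cases and fell in 2. The list's sum was 857 to 1095 CPM in co-housed and 522 to 527 CPM in separately housed mice. In Rag1-/- mice, which form no mature B cells, it was 693, 748 and 713 CPM, with 3 members called higher and 9 lower than in wild type mice. The list is thus not a measure of plasma cells alone. Igj, the joining chain of secreted IgA, had 302, 420.2 and 182 against 22.2, 22.3 and 16.7 CPM, 14.8-fold higher (SE 0.36 on a log2 change of 3.89, adjusted p = 2.03e-05), and wild type mice averaged 1406 CPM. The plasma cell chaperone gene 2010001M09Rik (Mzb1) rose 5.05-fold, and the epithelial IgA transporter Pigr did not pass (0.02, SE 0.10, adjusted p = 0.901). Ccr7 and Cxcl13, which guide lymphocytes to follicles, rose by 2.02 and 1.48.

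Genes of MHC class II presentation rose in 12 of 13 cases and fell in 1, Ifi30 (−0.24). Ifi30 was not called in the 6 Tcra-/- libraries alone or without mouse TCRaCox3155, TCRaCox3156, TCRaCox3157, TCRaSepxT2 or TCRaSepxT4 (adjusted p = 0.0107 to 0.0323). Cd74, the invariant chain, had 2231, 2243 and 1880.2 against 177, 205 and 183 CPM. The values within each group were tight and the groups far apart, an 11.3-fold rise (log2 3.49, SE 0.13, adjusted p = 1.69e-10). H2-Aa had 1495, 1525 and 920.5 against 158, 159 and 129.8 CPM (8.83-fold), H2-Eb1 493, 536 and 348 against 80.9, 80.8 and 72.4 (5.88-fold) and the peptide loader H2-DMb1 70.9, 73.3 and 55.8 against 5.99, 6.24 and 5.40 (11.3-fold). Ciita, the class II transactivator, rose 6.57-fold (SE 0.18 on 2.72, adjusted p = 1.63e-07). Wild type mice averaged 2218 CPM of Cd74 and Rag1-/- mice 1749 CPM, so the separately housed Tcra-/- mice were the group that stood low.

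The sum of class II transcripts was set beside that of B cells, which also express them. Summed class II CPM was 5601, 5673 and 4172 in co-housed and 889, 909.7 and 848 in separately housed mice. The summed B cell list was 369, 383 and 267 against 117, 192 and 156 CPM. The 2 sums are not independent, since Ciita is in both lists. Its mean was 56.3 CPM in co-housed, 8.57 CPM in separately housed and 38.7 CPM in Rag1-/- mice. Rag1-/- mice, with 88.3, 81.5 and 87.2 CPM of the B cell list, had 3926, 3895 and 4483 CPM of class II transcripts. H2-Oa and H2-Ob, which are made mainly in B cells and thymus, rose by 1.16 and 1.00, against 3.49 for Cd74. H2-Ob was not called with scaling by library size alone or without mouse TCRaCox3155, TCRaCox3156, TCRaSepxT2 or TCRaSepxT4 (adjusted p = 0.0140 to 0.0220). The part of B cells and of myeloid cells in the class II change was not tested.

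**Figure D3:**
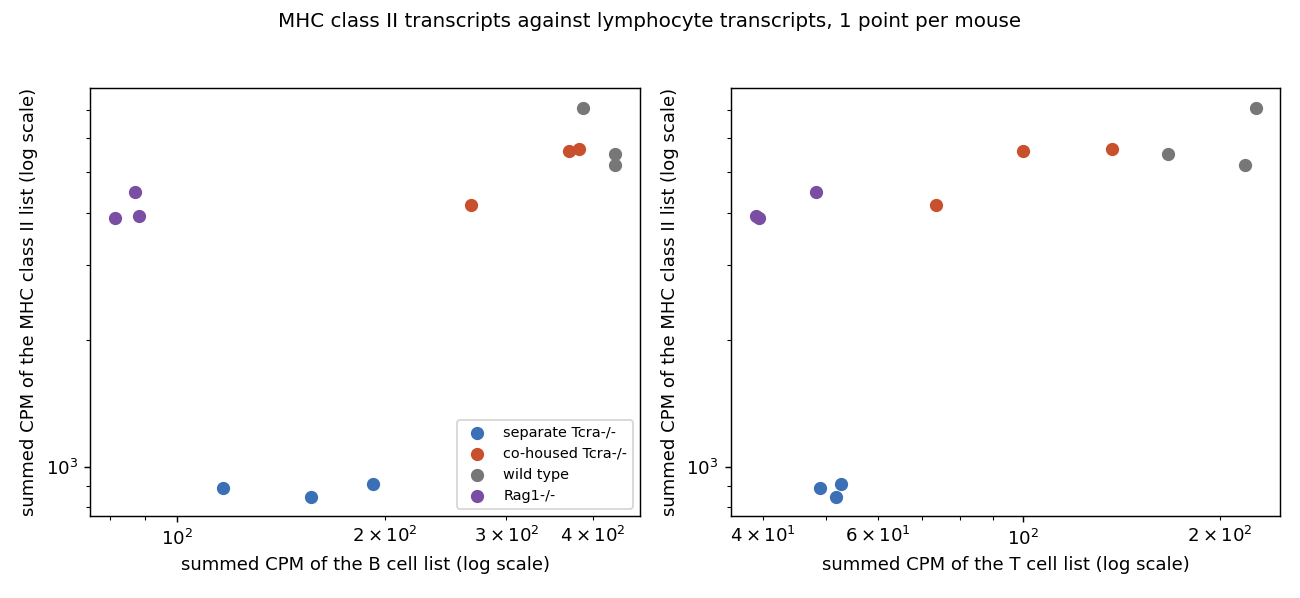
Summed CPM of the MHC class II list (vertical axes, log scale) against summed CPM of the B cell list (left) and of the T cell list (right, log scales), 1 point per mouse of the 4 groups. Rag1-/- mice have the fewest B cell transcripts and 3895 to 4483 CPM of class II transcripts, and separately housed Tcra-/- mice have 848 to 910 CPM. Ciita is in both the class II and the B cell list, and the part of B cells in these levels was not tested.

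Interferon gamma response genes rose in 31 of 35 cases and fell in 2, the largest median of any list with at least 6 tested members (2.68). Ubd, a ubiquitin-like protein induced by interferon, had 315, 350.3 and 122 against 2.96, 3.08 and 2.54 CPM, 91.8-fold higher (log2 6.52, SE 0.74, adjusted p = 0.000101). The guanylate binding protein Gbp2 had 101, 168 and 84.1 against 20.5, 17.4 and 17.1 CPM (6.43-fold) and the immunity-related GTPase Iigp1 92.6, 172 and 73.1 against 7.86, 5.61 and 4.79 CPM (18.5-fold). Mouse TCRaCox3156 was highest and TCRaCox3157 lowest of the co-housed mice in these GTPase genes, and no co-housed mouse overlapped the other group. Such a lack of overlap on the higher side held for 30.1% of all genes tested. The transcription factor Irf1 rose 2.28-fold, Zbp1 41.2-fold and the chemokine Cxcl9 14-fold. The receptor chain Ifngr2 and the kinase Jak2 fell (−0.67 and −0.56), and Ifngr1 did not pass (−0.06).

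Class I antigen presentation rose in 21 of 27 cases and fell in 1. Nlrc5, the class I transactivator, had 59.7, 79.3 and 45.6 against 2.66, 3.77 and 2.93 CPM (19.7-fold), the peptide transporter Tap1 rose 8.75-fold, the immunoproteasome subunit Psmb8 8.72-fold (245, 295 and 195 against 30.8, 27.5 and 25.9 CPM), and B2m 2.01-fold. Type I interferon and antiviral genes rose in 31 of 35 cases and fell in 1, with a median of 1.58. Oas2, a sensor of viral RNA, had 28.8, 30.4 and 28.9 against 2.30, 2.94 and 2.73 CPM (3.47, SE 0.38, adjusted p = 4.36e-05), and Isg15 rose 7.67-fold. Slfn2, an interferon-induced regulator of lymphocyte quiescence, had among the smallest p of the comparison, with 67.3, 82.6 and 76.5 against 5.40, 6.97 and 5.58 CPM (3.66, SE 0.12, adjusted p = 2.23e-11). Many genes respond to both interferons, so the lists are not independent.

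Promoters of members of these lists were read from RefSeq (GRCm38.p6, a later build than the mm9 of the counts) to show the letters that the respective factors are known to read. The 150 bases before the annotated start are given 5′ to 3′ on the gene's strand, with the match in capitals. The match is the Y box CTGATTGG in H2-Aa and H2-Eb1, the interferon-stimulated response element (TTTC, any 2 bases, TTTC) in Gbp2, and the STAT site TTCNNNGAA in Irf1 and Reg3b.
H2-Aa, chr17:34287824-34287973, minus strand: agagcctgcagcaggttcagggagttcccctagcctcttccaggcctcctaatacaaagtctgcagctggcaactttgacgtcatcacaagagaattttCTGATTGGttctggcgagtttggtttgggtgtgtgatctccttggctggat
H2-Eb1, chr17:34305717-34305866, plus strand: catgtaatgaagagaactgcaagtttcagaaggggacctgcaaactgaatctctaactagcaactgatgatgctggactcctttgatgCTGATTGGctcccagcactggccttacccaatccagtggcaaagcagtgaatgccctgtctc
Gbp2, chr3:142620513-142620662, plus strand: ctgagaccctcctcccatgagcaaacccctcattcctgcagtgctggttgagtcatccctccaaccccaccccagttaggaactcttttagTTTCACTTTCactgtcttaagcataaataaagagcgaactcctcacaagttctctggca
Irf1, the first of 2 annotated starts, chr11:53769864-53770013, plus strand: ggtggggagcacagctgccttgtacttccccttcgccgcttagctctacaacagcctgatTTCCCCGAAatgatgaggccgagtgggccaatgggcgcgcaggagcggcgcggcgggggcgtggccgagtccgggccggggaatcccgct
Reg3b, chr6:78370735-78370884, plus strand: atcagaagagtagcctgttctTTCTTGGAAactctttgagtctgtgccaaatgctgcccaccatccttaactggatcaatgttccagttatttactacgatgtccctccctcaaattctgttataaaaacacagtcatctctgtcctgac
The class II genes both carry the Y box within the last 62 bases before the start, and the Gbp2 element and the Irf1 site also lie within 90 bases of it.

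Over 250 bases before the start, on both strands, the Y box was found in 4 of 11 promoters of the class II list, 6 of 23 of the class I list and in 3.83% of all 32851 promoters of the table. The interferon-stimulated response element was in 11 of 25 promoters of the interferon gamma list, 15 of 34 of the type I list and 2.98% of all promoters. The STAT site was in 10 of 25 promoters of the interferon gamma list, 4 of 19 of the interleukin 22 and STAT3 list, 5 of 34 of the type I list, 3 of 22 of the antimicrobial list and 7.02% of all. Of the tested genes, 11065 of 15866 had a promoter in the table. A match is a description of letters and not of binding. Reg3g, which also rose, held no STAT site in its 150 bases.

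Myeloid genes rose in 24 of 30 cases and fell in 0 by edgeR (1 lower at an unadjusted p under 0.05, 0 by DESeq2), with a median of 1.01. The integrins Itgam and Itgax had 22.6, 24.6 and 22.8 against 13.6, 10.2 and 11.2 and 14.3, 19 and 14.5 against 7.79, 7.13 and 8.07 CPM (1.00 and 1.06), and Ccr2, the receptor that brings monocytes into tissue, rose by 2.42. The chemokine list had 24 of 40 members higher and 1 lower. Ccl8, a monocyte attractant, rose 53.4-fold (11.3, 19 and 7.23 against 0.132, 0.466 and 0.109 CPM), and Cxcl5, a neutrophil attractant made by epithelium, rose by 4.99 from a low level. Ccl25, which draws lymphocytes to the small intestine, fell (−0.32, SE 0.08) and was not called in the 6 Tcra-/- libraries alone or without mouse TCRaCox3156, TCRaCox3157, TCRaSepxT2 or TCRaSepxT4 (adjusted p = 0.0114 to 0.0215). Of 20 neutrophil, eosinophil and mast cell genes 10 rose and 1 fell, with a median of 1.67. With a filter of 1 CPM, 6 of 12 rose and 1 fell. The summed level of the list was low, at 45.5 to 62.4 CPM in co-housed and 21.6 to 35.1 CPM in separately housed mice. The neutrophil gene S100a8 had 0.600, 0.320 and 0.198 CPM in co-housed mice and no read in separately housed mice. It was at least 16.1-fold higher over the group floor of 3 counts.

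Sensors of microbes and of cell death rose in 26 of 45 cases and fell in 3 (6 with scaling by library size alone). Ripk3, the kinase of necroptosis, had 99.7, 92.3 and 98.4 against 26.6, 21.9 and 23.4 CPM (2.01, SE 0.09, adjusted p = 2.97e-10), and its substrate Mlkl rose 5.85-fold (28.7, 31 and 22 against 5.66, 4.38 and 3.92 CPM). With Zbp1, which engages Ripk3, the 3 genes of that arm were each above the other group in every mouse. The same held for 30.1% of all genes tested. Casp4, a receptor for lipopolysaccharide, rose 2.72-fold and the pore former Gsdmd 1.72-fold. The flagellin sensor Naip5 fell (−1.07), and Nlrp6 did not pass (−0.17, adjusted p = 0.0995). Complement factor I, Cfi, rose 22.1-fold and C4b by 1.93, whereas factor B, Cfb, fell (217, 197 and 208 against 297, 289.6 and 315 CPM).

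Proliferation genes were higher almost throughout, 30 of 34 with 0 lower by edgeR (1 at an unadjusted p under 0.05, 0 by DESeq2) and a median of 0.97. Mki67 had 218, 234 and 198 against 123, 111 and 83.5 CPM (1.04, SE 0.14, adjusted p = 2.96e-05), Top2a 244, 257 and 208 against 119.6, 98.4 and 66.7 CPM and the replication helicase subunit Mcm2 32.6, 32.2 and 27.2 against 15.4, 18.8 and 15.8 CPM. The G1 cyclin Ccnd1 rose 6.26-fold. Of 25 genes of stem cells and Wnt signalling 8 rose and 2 fell, with a median of 0.21. Ly6a, a gene of the inflamed or regenerating epithelium and of lymphocytes, rose by 3.42, and the progenitor surface protein Prom1 rose 1.99-fold (144, 144 and 164 against 85.3, 76.7 and 64.6 CPM). The Eph receptors Ephb2 and Ephb3, which sort cells along the crypt, rose by 0.61 and 0.89, and the telomerase gene Tert fell by 1.41. The stem cell markers Lgr5 (0.06, SE 0.16, adjusted p = 0.797) and Olfm4 (0.32, adjusted p = 0.555) did not pass. Since lymphocyte lists rose as well, the cell type of the proliferation transcripts was not tested.

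**Figure D4:**
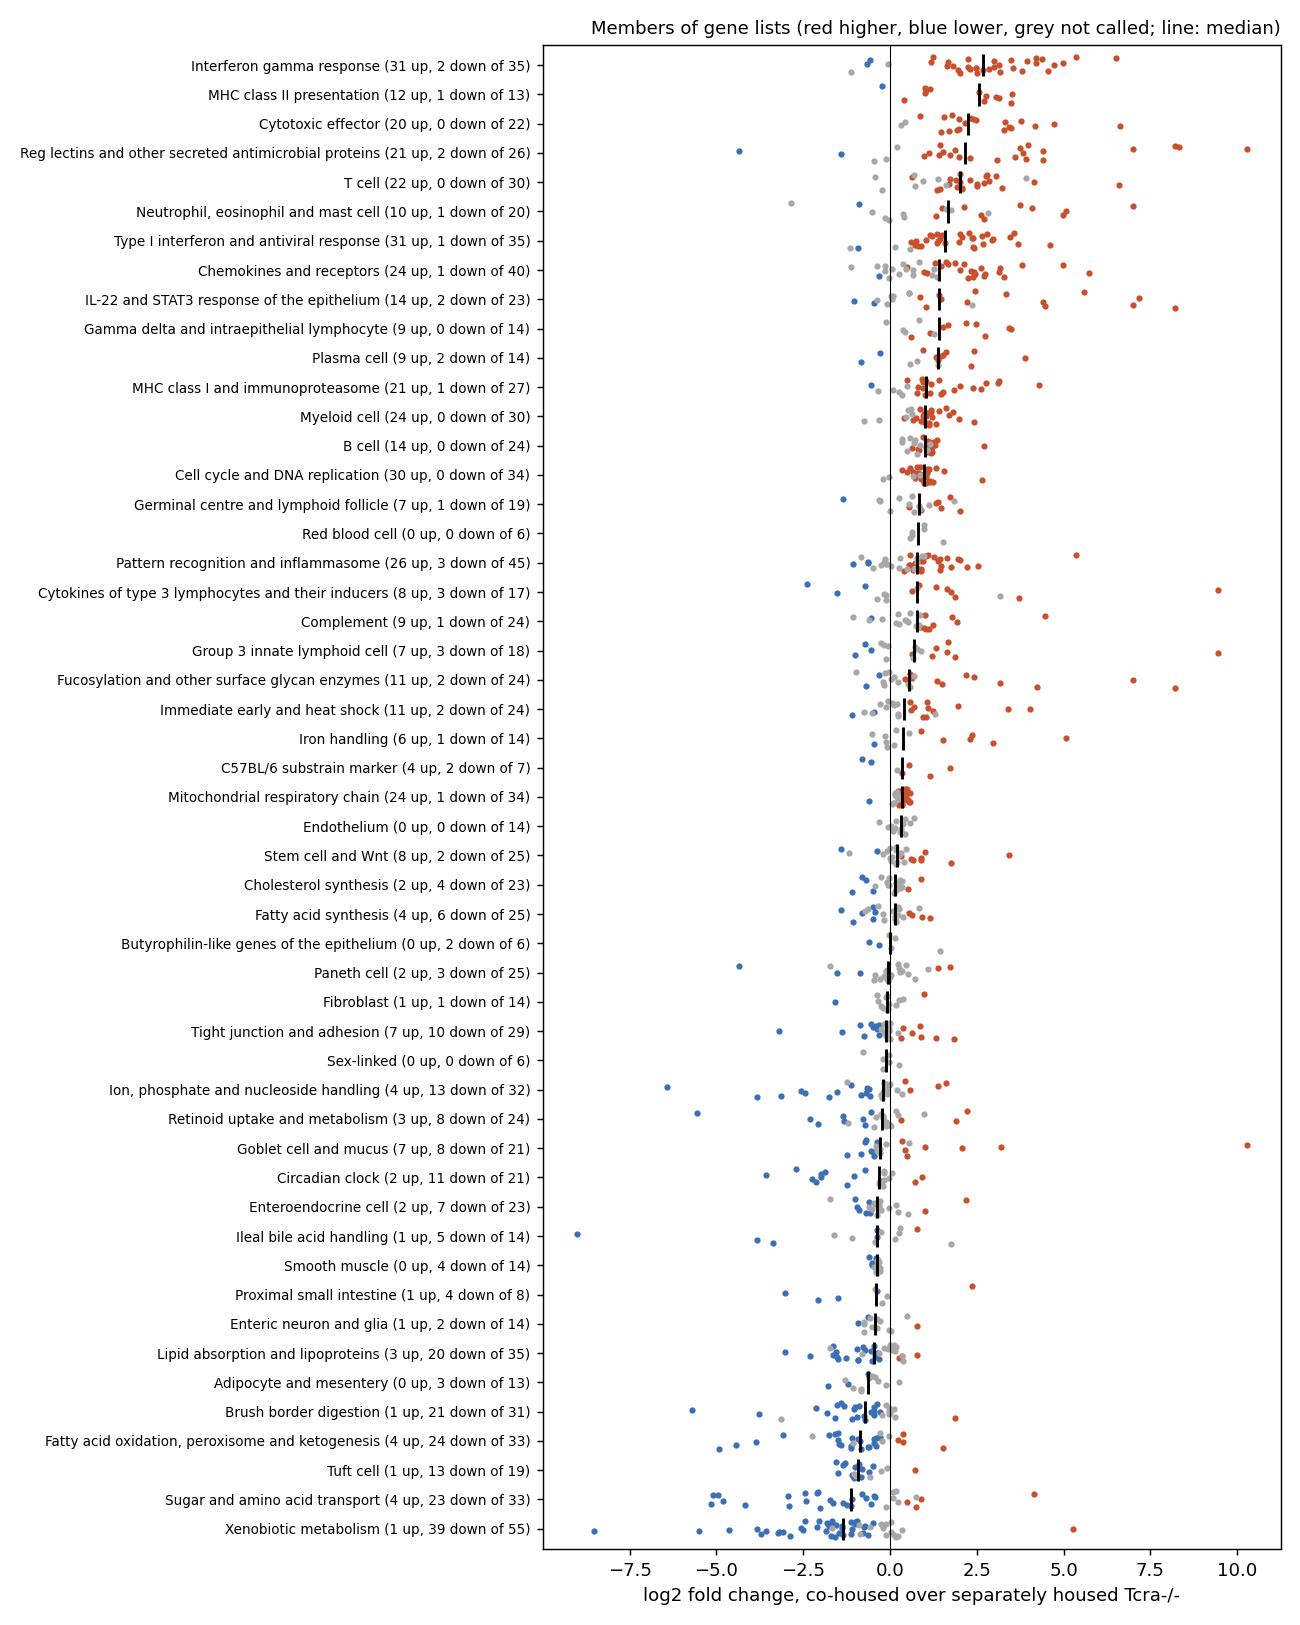
Log2 fold change of each tested member (horizontal axis, co-housed over separately housed Tcra-/-) of the gene lists with at least 6 tested members (vertical axis, ordered by median), with red for called higher, blue for called lower, grey for not called and a black line at the median. Immune and proliferation lists lie to the right of 0 and nutrient, xenobiotic and tuft cell lists to the left, against a median of −0.01 over all genes.

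Genes that enterocytes use for nutrients made up the other side of the comparison. Lactase, Lct (mm9 chromosome 1, 130181341 to 130224895), had 28.1, 9.76 and 5.47 against 639, 610.2 and 978 CPM, 51.8-fold lower in co-housed mice (log2 −5.70, SE 0.64, adjusted p = 9.93e-05). Of 31 brush border genes, which encode digestive enzymes, receptors and the scaffold of the microvilli, 21 fell and 1 rose, the phosphatase Alpl (1.86, SE 0.50). Alpl was not called without mouse TCRaCox3155, TCRaCox3156, TCRaSepxT3 or TCRaSepxT4 (adjusted p = 0.0138 to 0.0298), and had a change of 2.87 without mouse TCRaSepxT2. Its intestinal relative Alpi fell 2.98-fold (315, 214 and 244 against 725, 708 and 868 CPM) and the trehalase Treh 2.87-fold. Aminopeptidase N, Anpep, did not pass (8838, 8338 and 8703 against 6881, 6918 and 9566 CPM, adjusted p = 0.300).

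Of 33 genes for sugar and amino acid uptake and use, 23 fell and 4 rose. The glucose carrier Slc2a2 had 2.43, 0.412 and 0.743 against 26.1, 35.6 and 34.4 CPM (28-fold lower), the fructose carrier Slc2a5 fell 5.34-fold and the peptide transporter Slc15a1 3.09-fold (329.6, 233 and 269 against 764, 831 and 977 CPM). The list's enzymes of gluconeogenesis fell as well. Pck1 had 7.51, 4.02 and 5.55 against 106, 208 and 294 CPM (−5.16, SE 0.73, adjusted p = 0.000390), G6pc fell 18.2-fold and Fbp1 7.49-fold. An exception was the amino acid transporter Slc6a14, which rose by 4.15 (SE 0.19). The nucleoside transporter Slc28a1 fell furthest among genes with a mean log2 CPM above 1 and no overlap, from 49.6, 75.6 and 52.7 to 0.914, 0.343 and 0.842 CPM (−6.43, SE 0.63, adjusted p = 3.46e-05).

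The genes of lipid uptake and export held 20 lower and 3 higher of 35. The fatty acid translocase Cd36 had 13.1, 13.1 and 11.6 against 35.4, 40.5 and 42.2 CPM (3.13-fold lower, log2 −1.65, SE 0.11, adjusted p = 1.20e-08), and the fatty acid carriers Fabp1 and Fabp2 had 16.1, 7.02 and 11 against 115, 75.2 and 87.2 and 3516, 2144 and 2564 against 8079, 7269 and 8599 CPM. Each group was separate from the other for all 3, as it was on the lower side for 27.8% of all genes tested. The apolipoproteins Apoa4 and Apoc3 fell 2.87-fold and 4.94-fold, and the cholesterol transporter Npc1l1 1.64-fold. Mttp, which loads lipid onto lipoproteins, did not pass (0.05, SE 0.09, adjusted p = 0.621).

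Of 33 genes of fatty acid oxidation and peroxisomes 24 fell and 4 rose (2 without mouse TCRaCox3155, TCRaCox3157, TCRaSepxT3 or TCRaSepxT4). Ppara, the nuclear receptor that drives this programme, had 27.3, 25.3 and 24.3 against 65.4, 82.3 and 83.9 CPM (3.01-fold lower, SE 0.11 on −1.59). Catalase, Cat, a peroxisomal enzyme in no list, had 62.6, 59.9 and 55.5 against 316, 319.8 and 390.0 CPM, with tight groups (5.76-fold lower, SE 0.10 on −2.53, adjusted p = 1.69e-10). The thiolase Acaa1b fell 30.4-fold, the thioesterase Acot12 21.7-fold (Acot12 shares exonic bases with another gene), Angptl4 14.6-fold and Pdk4, which restrains glucose oxidation, 8.39-fold. Acadl, a long-chain dehydrogenase, rose by 1.54 (SE 0.09). Fatty acid and cholesterol synthesis did not move 1 way, with 4 higher and 6 lower of 25 and 2 higher (4 without mouse TCRaCox3157) and 4 lower of 23. The elongase Elovl6 rose 2.24-fold, Fasn did not pass (0.22, adjusted p = 0.0486), and the squalene epoxidase Sqle rose 1.85-fold.

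Xenobiotic metabolism had the lowest median of the lists with at least 6 tested members, −1.36, with 39 of 55 members lower and 1 higher. Cyp2d26, a cytochrome P450, had 15.5, 5.28 and 6.68 against 206, 210.0 and 260.2 CPM (25-fold lower, SE 0.41 on −4.64, adjusted p = 1.84e-05), the conjugating export pump Abcc6, in no list, 3.34, 3.70 and 3.49 against 26.9, 29.3 and 33.3 CPM, and the epoxide hydrolase Ephx2, also in no list, fell 5.08-fold. Cyp2c29 had no read in co-housed mice and 0.812, 1.23 and 1.16 CPM in separately housed mice, at least 42.3-fold lower. The receptor Nr1i3, which controls many of these enzymes, fell 3.19-fold, while its relative Nr1i2 and the aryl hydrocarbon receptor Ahr did not pass (−0.27 and −0.10). The member called higher was Cyp2d9 (0.0857, 0.0915 and 0.149 against 0, 0 and 0 CPM), which rests on few reads and was not called without mouse RAG1x3164, RAG1x3168, TCRaCox3155, TCRaCox3156, TCRaCox3157, TCRaSepxT2, TCRaSepxT3 or TCRaSepxT4 (adjusted p = 0.0101 to 0.0230).

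Of 24 genes of retinoid metabolism 8 fell and 3 rose. Rdh7, a retinol dehydrogenase, had 3.31, 2.51 and 0.842 against 93.6, 97.2 and 121 CPM (47.2-fold lower), the carotene cleaving enzyme Bcmo1 fell 4.21-fold, and Rbp2, the retinol carrier of enterocytes, 2.53-fold. Stra6, a retinol receptor, rose by 2.23. Bile acid handling had 5 members lower and 1 higher of 14 (3 lower without mouse TCRaCox3156 or TCRaSepxT4). Nr0b2, a repressor that bile acid receptors induce, had no read in co-housed and 1.03, 1.65 and 1.86 CPM in separately housed mice, at least 60.1-fold lower (adjusted p = 5.64e-06). The exporter subunits Osta and Ostb moved apart, by −0.38 and 0.79, with Osta not called without mouse TCRaCox3156 or TCRaSepxT4 (adjusted p = 0.0175 to 0.0198). The hormone Fgf15 did not pass (29.1, 33.7 and 40.2 against 36.9, 81 and 102 CPM, adjusted p = 0.102). The ferroportin gene Slc40a1, which exports iron, rose 5.14-fold.

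Many of these nutrient genes are graded along the small intestine. Of 8 genes that mark its proximal part, 4 fell (Gata4, Bcmo1, Fabp1 and Creb3l3) and 1 rose (Slc40a1), with a summed level of 456 to 625 CPM in co-housed and 632 to 791 CPM in separately housed mice. Gata4 was not called without mouse TCRaCox3155, TCRaCox3156, TCRaSepxT2 or TCRaSepxT4 (adjusted p = 0.0176 to 0.0357). The ileal genes Fabp6 and Slc10a2 did not pass. The part of the exact site of sampling in the nutrient results was not tested.

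The clock list shared in the fall, with 11 of 21 lower and 2 higher. The output factor Tef had 7.83, 8.00 and 8.15 against 37.1, 51.3 and 67.5 CPM (−2.70, SE 0.38, adjusted p = 0.000280) and Per3 fell 3.67-fold, and the repressors Cry2 and Nr1d2 fell 4.42-fold and 3.97-fold (Cry2 shares exonic bases with another gene). Npas2, a partner of Arntl, fell 2.04-fold and Cry1 rose 1.63-fold, whereas Arntl, Per1 and Per2 did not pass (−0.21, 0.06 and −0.16). Nfil3, a repressor tied to lipid uptake, rose 1.90-fold (26.7, 30.5 and 38.9 against 19.2, 13.7 and 17.6 CPM). The labels state no hour of sampling, and its part in these values was not tested. The chaperones Hspa1a and Hspa1b rose by 4.04 and 3.39, while Fos did not pass (−0.53, adjusted p = 0.0895).

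Among rarer epithelial cells, 13 of 19 tuft cell markers fell and 1 rose. The kinase Dclk1 had 8.77, 8.37 and 9.46 against 15.4, 21.5 and 19.6 CPM (2.12-fold lower) and the cation channel Trpm5 6.65, 5.78 and 5.08 against 14.5, 21.3 and 15.6 CPM (2.94-fold lower). The lower count was 8 without mouse TCRaCox3155 and 7 without TCRaSepxT3. The summed level of the tuft cell list did not fall, with 416 to 485 CPM in co-housed and 371 to 430 CPM in separately housed mice. Of 23 enteroendocrine markers 7 fell and 2 rose (4 lower without mouse TCRaSepxT4), with the hormone Gip at −0.89 and Sct at −0.60, and the distal hormones Gcg and Pyy not passing (0.22 and 0.16). Tac1, of neurons and enteroendocrine cells, rose by 2.18. Paneth cell genes did not move together, with 2 higher and 3 lower of 25 (1 and 5 without mouse TCRaCox3157). The lysozyme Lyz1 had 4288, 2595 and 10123 against 8335, 6279 and 3471 CPM, so that mice of 1 group differed more than the groups did (adjusted p = 0.896).

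Smooth muscle genes fell in 4 of 14 cases, a count that was 11 without mouse TCRaCox3157 and 2 without mouse TCRaCox3155, TCRaCox3156 or TCRaSepxT3, with a median of −0.38 and a summed level of 3196 to 4978 against 4975 to 5438 CPM. Of 14 fibroblast genes 1 was higher and 1 lower, and of 14 endothelial genes 0 were called by edgeR (3 higher at an unadjusted p under 0.05, 0 by DESeq2). Adipocyte and mesentery genes fell in 3 of 13 cases (5 without mouse TCRaCox3157), with a summed level of 111 to 140.0 against 218 to 288 CPM. The part of these layers in the results above was not tested. Genes of the mitochondrial respiratory chain rose in 24 of 34 cases by small amounts (median 0.34), and in 13 with scaling by library size alone. Tight junction and adhesion genes went both ways, 7 higher (4 with scaling by library size alone, or without mouse TCRaCox3155 or TCRaSepxT4) and 10 lower of 29, with the gut claudin Cldn8 at −3.20 and 2210415F13Rik (Lypd8), an epithelial protein that binds flagella, at 5397, 6421 and 5625 against 1924, 1495 and 1469 CPM.

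Of 32 genes for ions, phosphate, water and nucleosides 13 fell and 4 rose. The water and glycerol channel Aqp3 had 1.03, 0.663 and 1.19 against 11.2, 13.1 and 16.5 CPM (14.2-fold lower, SE 0.28 on −3.83, adjusted p = 6.07e-08). The hormones Guca2a and Guca2b, which act on fluid secretion through guanylate cyclase C, fell by 0.68 and 1.54 on the log2 scale. The sodium-proton exchanger Slc9a3 rose 3.07-fold (82.3, 77.6 and 62.7 against 25.2, 22.6 and 24.8 CPM), and the chloride channel Cftr did not pass (−0.26, adjusted p = 0.0591). Of 14 iron genes 6 rose and 1 fell. Ltf and Lcn2, secreted proteins that keep iron from bacteria, had 5.48, 7.82 and 8.52 against 0.263, 0.163 and 0.219 and 6.11, 6.58 and 7.72 against 1.67, 1.44 and 1.01 CPM, and the transferrin receptor Tfrc rose 1.84-fold. Carbonic anhydrase Car4, which is abundant in the colon, had 431, 454 and 663 against 75.7, 85.1 and 63.1 CPM (6.92-fold higher), with a Rag1-/- mean of 603 CPM.

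Besides Il22, Nr0b2, Cyp2c29 and S100a8, some genes had no read in any mouse of 1 group. The unnamed transcript 1700057G04Rik had 3.42, 2.89 and 2.71 CPM in separately housed mice and no read in co-housed mice, at least 119.5-fold lower (adjusted p = 2.61e-05). The pseudogene Cyp4a29-ps had 3.06, 0.617 and 3.17 CPM in co-housed mice and no read in separately housed mice, at least 98.4-fold higher (adjusted p = 7.27e-05), with mouse TCRaCox3156 lowest. Both bounds use 3 counts over the group at 0.

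Genes outside the lists included some of the clearest differences. Wtip, an adaptor of cell junctions, had 50.3, 49.7 and 49.3 against 5.97, 5.82 and 5.05 CPM (3.15, SE 0.11, adjusted p = 2.23e-11), and Serpina10, a protease inhibitor, 11.3, 13.5 and 14.3 against 0.417, 0.326 and 0.262 CPM (5.27, SE 0.24). Gml, Hemt1 and Ppef1 rose by 8.19, 7.68 and 7.47. On the lower side, BC089597 had 0.114, 0.183 and 0.173 against 9.74, 9.16 and 9.69 CPM (−5.88, SE 0.37, adjusted p = 6.84e-09), the pyrophosphate transporter Ank 28.6, 28.1 and 28.2 against 75, 82.5 and 78.2 CPM, and the selenium carrier Sepp1 fell 3.30-fold from 7879, 7505 and 8446 CPM.

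Genes that mark strain background and sex were also compared between the Tcra-/- groups. Of 7 genes that differ between C57BL/6 substrains, 4 were called higher (Cyfip2, Mid1, Naip1 and Entpd4) and 2 lower. Those lower were Wdfy1, at 20.5, 21.2 and 19 against 35, 33.8 and 37.5 CPM, and the mitochondrial enzyme Nnt, at 22.4, 23.4 and 24.7 against 31, 37.1 and 34.4 CPM. Wild type mice averaged 76 CPM of Wdfy1 and 53.9 CPM of Nnt, above both Tcra-/- groups. The Rag1-/- mean of Nnt was 21.3 CPM, below both Tcra-/- means. In Rag1-/- over wild type mice, 4 of the 7 genes were called higher and 3 lower. The part of strain background in the results above was not tested. Of 6 sex-linked genes 0 were called by edgeR, 0 by DESeq2 and 0 at an unadjusted p under 0.05. The labels do not give the sex of the Tcra-/- mice, and these counts do not show it. The gene 1700011H14Rik (mm9 chromosome 14, 49846034 to 49865103) had 0.200, 0 and 0 CPM in co-housed and 0.527, 1.4 and 1.20 CPM in separately housed mice, against means of 33.1 in wild type and 21.6 in Rag1-/- mice. Both Tcra-/- groups were thus far below the other 2 groups for this gene; its log2 change between them was −4.07, and −8.51 without mouse TCRaCox3155.

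The change in co-housed over separately housed mice is here called the housing effect, whatever its cause. It was last compared with the change in Rag1-/- over wild type mice, here called the Rag1 effect, which shares no library with it. The parts of genotype, strain background and cage in the Rag1 effect were not tested. The difference of the effects was tested itself, and 1910 genes were called (12%), 1178 with the housing effect more positive (7.42%) and 732 with it more negative (4.61%). Of all genes tested, 1494 rose (9.42%) and 1820 fell (11.5%) in Rag1-/- mice. Of genes that rose with co-housing, 1170 also rose in Rag1-/- mice, 35.0% of the first list and 78.3% of the second, and of those that fell, 970 fell in both (34.5% and 53.3%). A total of 349 genes rose with co-housing and fell in Rag1-/- mice, 10.4% of those that rose, a share near the 11.5% of all genes, and 15 fell with co-housing and rose in Rag1-/- mice.

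The difference was called for most genes of T and B cells and of antigen presentation and for a smaller share of antimicrobial genes. Rag1-/- mice form neither mature T nor mature B cells, and 29 of 30 T cell and 23 of 24 B cell genes fell in them. Differences for these 2 lists and for Igj would thus mostly be called even with no change between the Tcra-/- groups, and are no result about housing. The antimicrobial list had medians of 2.15 (housing) and 1.68 (Rag1), a median per-gene difference of 1.34, and 7 of 26 differences called, all more positive with housing. Reg3b rose by 3.83 with housing and 2.32 in Rag1-/- mice, a difference that did not pass (adjusted p = 0.0654). For the interferon gamma list the medians were 2.68 and −0.13, and 28 of 35 differences were called more positive. For class II they were 2.56 and −0.78 (11 of 13), for class I 1.03 and −0.28 (22 of 27), and for T cells 2.02 and −3.78 (28 of 30). Igj stood first by size of the difference among genes with a mean log2 CPM above 1, 3.89 with housing and −12.76 in Rag1-/- mice (adjusted p of the difference = 4.11e-07). On the falling side, xenobiotic genes had medians of −1.36 and −0.40, with 15 of 55 differences more negative with housing, and Slc28a1 fell by 6.43 against 1.76 (adjusted p = 0.00389). Fut2 (7.01 and 6.18, adjusted p = 0.331) and Cd36 (−1.65 and −1.57, adjusted p = 0.805) were not called as different.

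**Figure D5:**
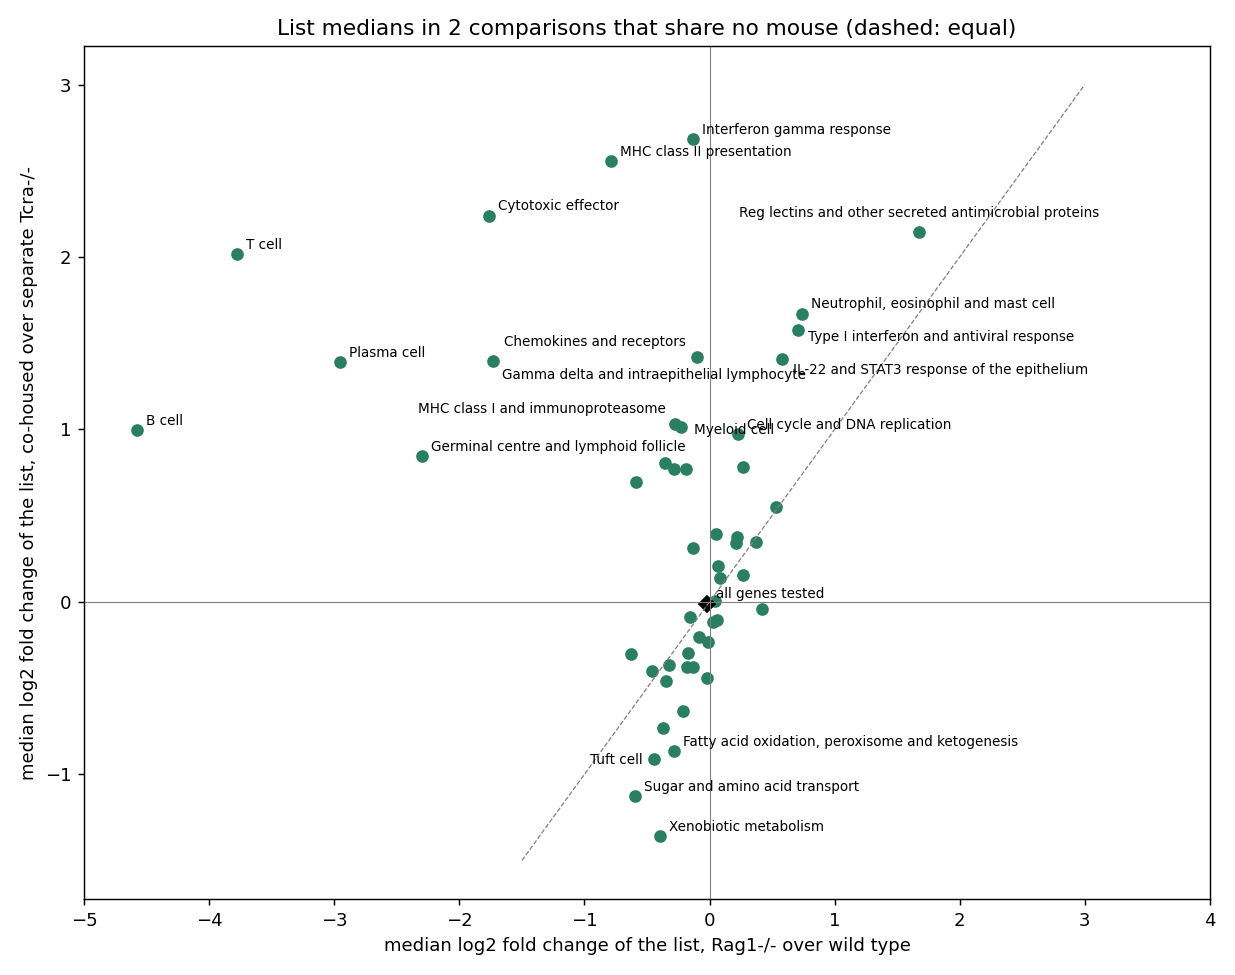
Median log2 fold change of each list with at least 6 tested members for co-housed over separately housed Tcra-/- mice (vertical axis) against Rag1-/- over wild type mice (horizontal axis), with all genes as a black diamond and a dashed line where both are equal. The antimicrobial list lies above the line (2.15 and 1.68), the T cell, B cell and class II lists lie at upper left, and the xenobiotic list lies lowest at −1.36.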

How the data were processed

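RNA of 1 piece of terminal ileum per mouse was sequenced after poly(A) selection with a stranded kit, per the labels' protocols. The authors deposited raw read counts per gene, 1 column per mouse. Per the submitters' processing notes these came from TopHat2 2.0.11, Bowtie2 2.2.2.0 and featureCounts of Subread 1.4.5-p1 on mm9. No source here states the strand setting, so reads of overlapping or antisense genes (1980 tested genes share exonic bases with another) and of near-identical copies may be misassigned.

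From the counts, edgeR 4.0.16 (R 4.3.3) was fitted to all 12 libraries (filterByExpr, TMM scaling, robust quasi-likelihood test, 8 residual degrees of freedom, two-sided). Genes at a Benjamini-Hochberg adjusted p under 0.01 over all 15866 genes tested were called, the false discovery rate that the series' design text gives. CPM use TMM-scaled library sizes, and SE is that of the log2 fold change. A bound on a fold uses 3 counts over the group.

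The members and the 53 lists were chosen with earlier results of these data known. Named genes are the 15 largest rises and falls, up to 4 called members per list with the smallest adjusted p, those of largest share, those at 0 in 1 group, those of smallest p and of largest difference from the Rag1 effect, and a few set ones. Other genes named were chosen after their values were seen. Lists are described by counts and medians, with no test. Alternatives were other scalings, filters, thresholds and DESeq2 1.42.0, a fit of the 6 Tcra-/- libraries, and leaving out each mouse.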

Additional observations from a re-analysis of the deposited data

How the results depend on the processing

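Of 697 named or listed genes that were called, 164 were not called under at least 1 alternative. These include genes that an alternative did not test, because of its filter or because the genes of largest share were left out. Among the results named by rule, 0 changed direction where tested. The housing count of 6156 was 5397 in the 6 Tcra-/- libraries alone, 6175 with scaling by library size alone (2480 higher, 3695 lower), 6723 with DESeq2 and 8111 at a false discovery rate of 0.05. Leaving out each mouse gave 5002 (without TCRaSepxT4) to 6134. The difference of the housing and Rag1 effects was called for 1910 genes, for 3314 at a false discovery rate of 0.05, and for 1429 to 1941 with each mouse left out. No paired analysis was possible because the groups share no replicate numbers. Depth limits genes of few reads: Il17a, Il6 and Il25 were below the filter. Cages are not given, so the spread between cages is not known.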
